A study of Rattus norvegicus with 24 samples.

Results

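The transcripts described here are 150 array probes, of 22523 measured (21886 target transcripts), whose signal in the rat hypothalamus was high at 21 days of age and lower at each later stage of puberty. They were chosen from the measured values themselves. On the log2 scale of the authors' processed intensities, a mean was taken for each of the 5 stages, and the day-21 excess was calculated as the early juvenile mean minus the mean of the other 4 stage means. Of the 9681 probes detected (detection p-value under 0.05) on all 5 early juvenile arrays, 1456 had their largest departure at this stage and in the upward direction, and the 150 with the highest excess were kept. The 150 probes belonged to 150 different target transcripts.

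The hypothalami came from Sprague Dawley rats, housed 4 to a cage, and each array held the RNA of 1 animal. Early juvenile rats were 21 days old (5 arrays), juvenile rats 26 days (4 arrays) and late juvenile rats 29 days (5 arrays). Early proestrus rats, taken before ovulation, were 29, 31 and 32 days old (3 arrays), and late proestrus rats, taken on the day of first ovulation, were 31 days old (5 arrays). The labels name no treatment and no engineered allele for any group. The early juvenile animals carried numbers 164 to 168, the late juvenile animals 28 to 37 and all others 1 to 20. Day 21 thus cannot be told apart from anything else particular to the animals numbered 164 to 168, and likewise for the late juvenile stage.

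The hypothalamus starts puberty through neurons that release gonadotropin-releasing hormone, which drives the pituitary gland and, through it, the ovaries. In the rat, the days between weaning and first ovulation also hold late steps of brain maturation, such as myelination and the refinement of synapses. Whole tissue was measured, so fewer cells of a type and less RNA per cell cannot be told apart.

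The files identify transcripts by probe and target identifiers and do not pair them with genes. None of these identifiers occurred in a RefSeq table of 47357 rat genes. Gene functions, pathways, sequences and markers of the tissue are therefore not analysed here, and members are named by probe identifier.

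The arrays of 2 more rats, juvenile replicate 4 and early proestrus replicate 2, were left out by the rule, with 19.5% and 6.33% of probes detected. Only 62 and 6 of the 150 members were detected on them. The 22 arrays used had 45.5% to 51.7% of probes detected and a mean raw signal of 514 to 1025 intensity units. The 2 dimmest of these were juvenile replicate 5, with a mean raw signal of 514, and late juvenile replicate 1, with 583. Replicate numbers serve here only as names of arrays. Levels below are log2 intensities after background correction and quantile normalization of the raw signals.

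The day-21 excess of the 150 members ran from 2.02 on the authors' log2 scale, a 4.06-fold higher early juvenile level, to 0.306, a 1.24-fold higher level, with a median of 0.392. The last 2 members had an excess of 0.305967 and 0.305906, and the first probes outside had 0.30569 and 0.305473. The membership limit therefore fell within a continuous run of values. These values chose the members and are given as a description.

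Members were mostly bright probes, and brightness depends on the probe as well as on the transcript. Their median early juvenile level was 10.0, with a range of 6.74 to 15.84, against a median of 8.55 for the 9681 probes from which they were drawn. In raw signal the medians were 1280 for the members and 567 for the 9681 probes. On the 17 later arrays, 138 members were detected throughout, 10 on 9 to 16 arrays, 1 on 4 to 8 arrays and 1 on 3 arrays. The lower signal after day 21 was thus a lower level of a transcript that was still detected, for 138 of the 150 members on every array.

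The median member level averaged 10.06 ± 0.08 at the early juvenile stage (SD, n = 5), 9.53 ± 0.17 at the juvenile stage (n = 4), 9.59 ± 0.11 at the late juvenile stage (n = 5), 9.42 ± 0.05 in early proestrus (n = 3) and 9.46 ± 0.16 in late proestrus (n = 5). The highest of the 17 later arrays, juvenile replicate 2, was at 9.74, below all 5 early juvenile arrays, which lay between 9.96 and 10.15. The step was present at 26 days. The median difference from the early juvenile mean was -0.53 at the juvenile stage, -0.50 at the late juvenile stage, -0.65 in early proestrus and -0.60 in late proestrus. All 150 members had a lower mean than at day 21 in each of these 4 stages, which the choice of members favours.

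**Figure D1:**
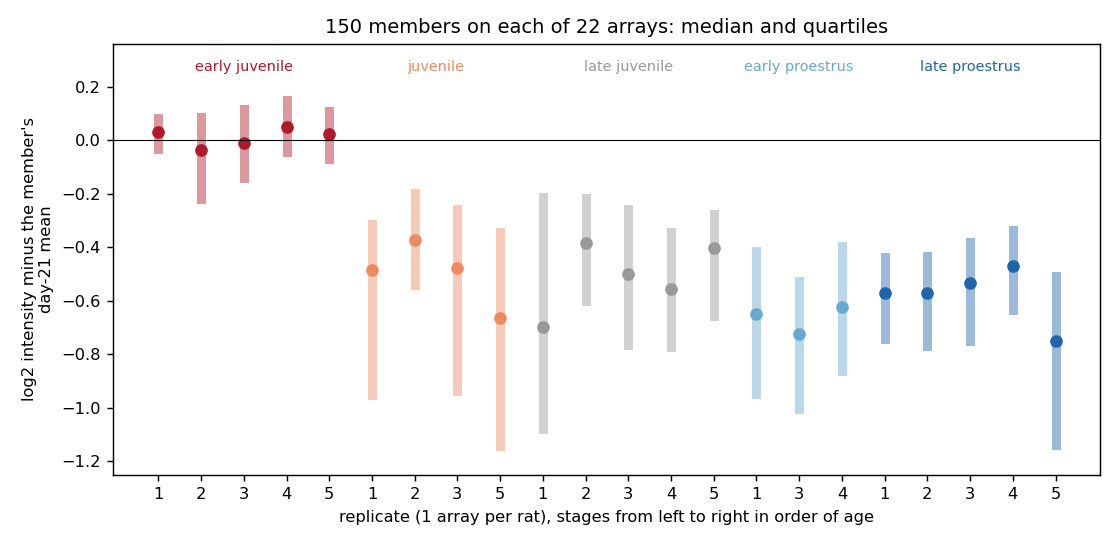
Log2 intensity of the 150 members on each of 22 arrays, minus each member's early juvenile mean, with a point for the median and a bar from the lower to the upper quartile. The 5 early juvenile medians sit near 0, and the 17 later medians sit between -0.37 and -0.75, with the lowest in late proestrus replicate 5.

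The difference reached by 26 days was expressed as a share of each member's mean difference over the 4 later stages. This share had a median of 93.4%, with quartiles of 80.4% and 107%, and it exceeded 75% in 125 members. Only 4 members had a share under 50%, the lowest being 20.2%. The juvenile mean includes the dim juvenile replicate 5, where the median difference of the members from day 21 was -0.67. On juvenile replicates 1, 2 and 3 it was -0.49, -0.37 and -0.48, against -0.47 to -0.75 on the proestrus arrays. The share without juvenile replicate 5 was not calculated. The rule used these stage means and asked that day 21 depart more than any later stage, and the later mean includes the juvenile stage, so shares near 100% are favoured by the choice of members. The lowest of the 4 later stages was early proestrus in 69 members, late juvenile in 44, late proestrus in 27 and juvenile in 10.

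Separation from day 21 was complete for a minority of members. In 46 of 150 members, all 5 early juvenile arrays were above all 17 later arrays, a property held by 1.05% of the 9681 probes; since the rule used this contrast, nothing is read from the comparison. Stage by stage, all arrays lay below all early juvenile arrays in 80 members at the juvenile stage, 83 at the late juvenile stage, 132 in early proestrus and 113 in late proestrus. Over the 9681 probes the shares were 4.95%, 10.1%, 9.05% and 6.95% in the same order, and again nothing is read from the comparison. Early proestrus had the fewest arrays, which makes complete separation easier there.

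The member with the highest excess, ILMN_1358038 (2.02), was bright throughout. Its 5 early juvenile arrays gave 14.18, 14.14, 14.23, 14.67 and 14.58. Its 4 juvenile arrays gave 12.98, 13.00, 13.02 and 10.16, and its 5 late juvenile arrays 10.25, 13.55, 13.31, 12.63 and 13.13. Every later array was below the early juvenile ones, but juvenile replicate 5 and late juvenile replicate 1, the 2 dimmest arrays, stood far below the rest of their stages. Early proestrus arrays gave 12.24, 11.21 and 11.96, and late proestrus arrays 11.74, 13.13, 11.79, 13.13 and 12.51. Without the 2 dimmest arrays its excess was 1.72 instead of 2.02 on the authors' scale, still above the 1.47 of ILMN_1371267, the next member, in the same calculation. A second probe for the target of ILMN_1358038 was detected on none of the early juvenile arrays and on 1 of 22 arrays, and so gave no second measurement of this transcript.

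ILMN_1371267 had early juvenile levels of 10.50, 10.98, 11.12, 10.60 and 11.09. The juvenile levels were 9.56, 8.94, 9.07 and 9.27, and the late juvenile levels 9.08, 8.97, 9.07, 9.94 and 9.57. Early proestrus levels were 9.19, 8.93 and 8.68, and late proestrus levels 8.49, 8.54, 8.14, 10.48 and 8.33. All later arrays were below the early juvenile ones, with late proestrus replicate 4, at 10.48, just under the lowest of them.

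ILMN_1352660, picked after its values were seen for having the widest gap between early juvenile and later arrays, had early juvenile levels of 9.07, 8.72, 8.53, 8.90 and 9.53. Its juvenile levels were 7.30, 7.18, 6.93 and 6.99. The highest of its 17 later arrays was a late proestrus array at 7.48, which left a gap of 1.05 below the lowest early juvenile array. Its later stage means were 7.10, 6.69, 6.82 and 7.20 in order of age, so that nearly all of its difference was present at 26 days.

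The member detected on the fewest later arrays was ILMN_1352539, also picked after its values were seen. Its early juvenile levels were 7.37, 6.85, 6.60, 6.37 and 6.80, all detected. It was not above background on any of the 4 juvenile and 3 early proestrus arrays, was detected on 1 of 5 late juvenile and 2 of 5 late proestrus arrays, and its later levels of 5.03 to 5.98 are therefore near the background. It was the only member not tested among the later stages.

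**Figure D2:**
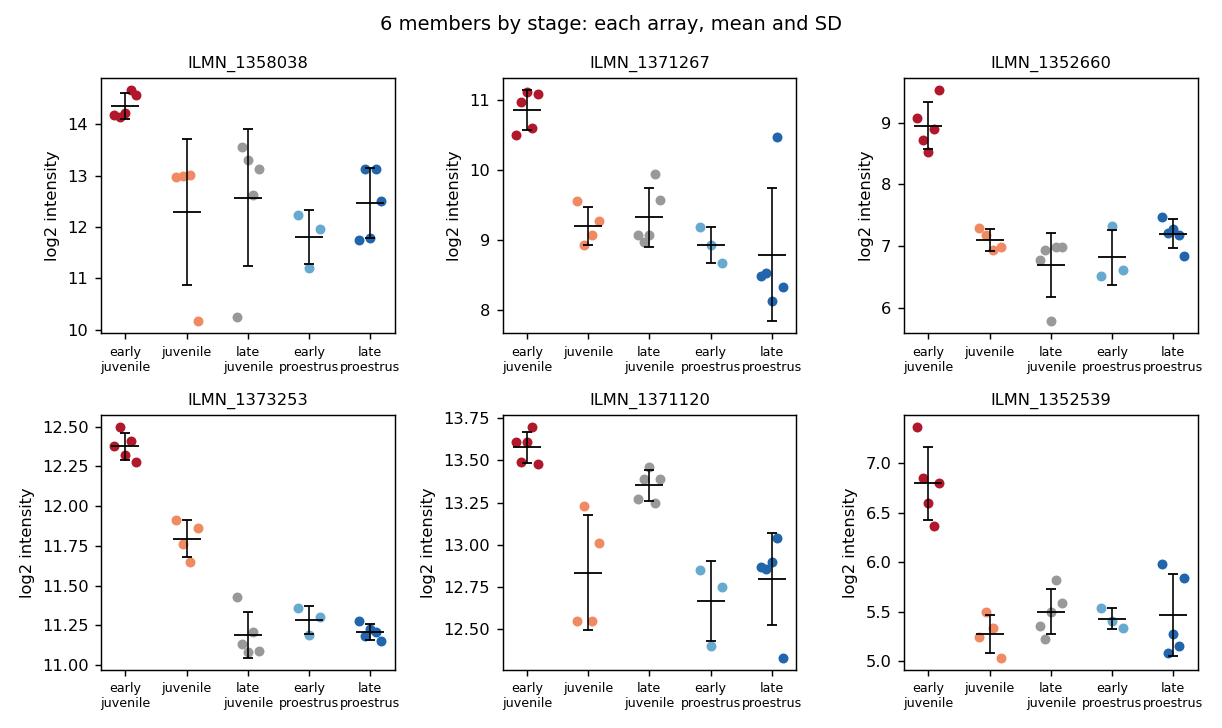
Log2 intensity of 6 members by stage, with a point for each array, a line for the stage mean and bars for the SD. ILMN_1358038 has 1 low array in each of the juvenile and late juvenile stages, at 10.16 and 10.25; ILMN_1373253 has a second step between 26 and 29 days, and ILMN_1371120 is at 13.25 to 13.46 on the late juvenile arrays.

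Since the rule fixed the contrast with day 21, tests were confined to differences among the 4 later stages. They were limma fits over 12069 probes with Benjamini-Hochberg adjustment and a threshold of 0.05. The rule also used the 4 later stage means, so these tests were not independent of the choice of members. All members but ILMN_1352539 were tested. Of these, 26 differed among the later stages (17.4%), against 14.1% of all probes tested. The members' share was near that background. The count was 45 without juvenile replicate 5 and 11 to 16 without any 1 of late juvenile replicates 2, 3 and 5 and late proestrus replicate 2.

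Between 26 and 29 days, 9 members rose and 8 fell at the late juvenile stage relative to the juvenile stage. That is 6.04% and 5.37% of the members tested, against backgrounds of 6.9% and 6.82%. The median difference was -0.01 over the members and 0.01 over all probes tested. When arrays were scaled to a common median instead, which put the median difference of all probes at -0.18, the split was 1 higher and 20 lower, so that no direction is given for the members as a set. The number called was 40 without juvenile replicate 5, and it was 8, 6, 11 and 10 without juvenile replicates 1 and 3 and late juvenile replicates 2 and 5, each left out alone.

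The 9 members that rose had differences of 0.46 to 0.69 and late juvenile means that were still 0.03 to 0.64 below their early juvenile means. ILMN_1351802 had late juvenile levels of 7.13 to 7.47 against juvenile levels of 6.44 to 6.92, a difference of 0.69 (SE 0.13, limma adjusted p = 0.00146). ILMN_1371120 had late juvenile levels of 13.27, 13.39, 13.46, 13.25 and 13.39 against juvenile levels of 12.55, 13.23, 12.55 and 13.01, a difference of 0.51 (SE 0.14, limma adjusted p = 0.0203). The call for ILMN_1371120 was lost without juvenile replicate 1 (limma adjusted p = 0.0901), without juvenile replicate 3 (0.0851), with median scaling (0.316) and with only the arrays of these 2 stages (0.0768). Late juvenile arrays stood above all juvenile arrays in both members, and in ILMN_1371120 they came close to the early juvenile levels of 13.48 to 13.70.

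Of the 8 members that fell, ILMN_1373253 had the clearest second step. Its early juvenile levels were 12.38, 12.50, 12.32, 12.41 and 12.28, its juvenile levels 11.91, 11.76, 11.65 and 11.86, and its late juvenile levels 11.43, 11.13, 11.08, 11.21 and 11.09. None of these 3 groups overlapped. The late juvenile minus juvenile difference was -0.61 (SE 0.08, limma adjusted p = 6.66e-05). ILMN_1349541 had late juvenile levels of 9.39 to 9.65 against juvenile levels of 9.77 to 10.16, a difference of -0.46 (SE 0.09, limma adjusted p = 0.00259). Its juvenile arrays overlapped its early juvenile arrays, which were at 10.00 to 10.25. The probes named for these 2 comparisons of neighbouring stages were chosen after their values were seen.

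In early proestrus relative to the late juvenile stage, 1 member rose and 16 fell. The 16 that fell were 10.7% of the members tested, against 3.02% of all probes. The 1 that rose was 0.671%, against 3.35% of all probes. Of the 16, 11 were in a group of 30 members that varied together (described below), so they are not separate observations. The median difference was -0.07 over the members, of which 61.7% were below 0, and 0.00 over all probes, of which 49.3% were below 0. The rule used the mean of the later stage means. A low mean in early proestrus, the stage with the fewest arrays, therefore favoured membership, and nothing is read from these comparisons with all probes. The direction of the count of members called depended on the scaling. With median scaling, which put the median difference of all probes at 0.24, the split was 10 higher and 1 lower. It also rested on few arrays, since the members called numbered 1 without early proestrus replicate 3, 5 without early proestrus replicate 4 and 9 without late juvenile replicate 2, all of them lower.

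The 16 members that fell had differences of -1.27 to -0.31, and their early proestrus means were 0.59 to 1.61 below their early juvenile means. ILMN_1371641 had early proestrus levels of 10.91, 10.22 and 10.49 against late juvenile levels of 11.38, 11.37, 11.22, 11.01 and 11.42, a difference of -0.74 (SE 0.16, limma adjusted p = 0.00796). ILMN_1371120 had early proestrus levels of 12.85, 12.40 and 12.75 against the late juvenile levels above, a difference of -0.68 (SE 0.16, limma adjusted p = 0.0112). Both calls were lost without early proestrus replicate 3 (limma adjusted p = 0.0853 and 0.101 in the same order) and with median scaling (0.126 and 0.183), and that of ILMN_1371641 also with only the arrays of these 2 stages (0.0663). Both members thus had a late juvenile level above that of either neighbouring stage. The 2 comparisons share the late juvenile arrays, so a high or low late juvenile stage enters them with opposite signs. The late juvenile minus juvenile differences of the 16 members ran from 0.01 to 0.86, and the early proestrus minus late juvenile differences of the 9 members above ran from -0.84 to -0.39.

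The 1 member that rose in early proestrus was ILMN_1355677, with 11.29, 11.25 and 11.47 against late juvenile levels of 10.87 to 11.17 (difference 0.35, SE 0.10, limma adjusted p = 0.0313). This call was lost on leaving out early proestrus replicate 3 or 4 or late juvenile replicate 2, 3 or 5 (limma adjusted p = 0.0569 to 0.192), without the filter on dim probes (0.0539) and with only the arrays of these 2 stages (0.152). Its early proestrus mean remained 0.25 below its early juvenile mean.

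Between the 2 proestrus stages no member passed the threshold in limma, against a background of 0.00829%, which is 1 of 12069 probes. At an unadjusted p under 0.05 there were 8 members (5.37%), against 4.16% of all probes. From juvenile to late proestrus 1 member passed, against a background of 0.0166%, or 2 probes, and 8 members (5.37%) had an unadjusted p under 0.05, against 5.53% of all probes. That member was ILMN_1373253, with late proestrus levels of 11.28, 11.18, 11.23, 11.21 and 11.15 against juvenile levels of 11.65 to 11.91, a difference of -0.59 (SE 0.08, limma adjusted p = 0.00258). The call was lost with median scaling (limma adjusted p = 0.523) and with only the arrays of these 2 stages (0.118). Its 5 late proestrus arrays were all below its 4 juvenile arrays. The early proestrus levels were 11.36, 11.19 and 11.30, so this member kept the level it had reached at 29 days. No other member had a difference between 26 days and late proestrus that passed the test.

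**Figure D3:**
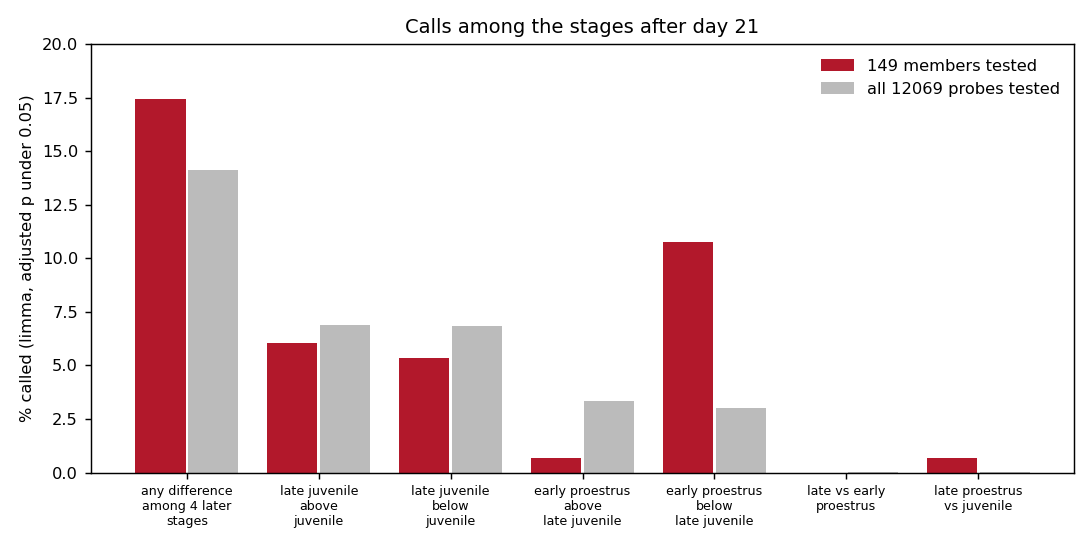
Percentage of the members tested (red) and of all 12069 probes tested (grey) that passed a limma adjusted p under 0.05, for each comparison among the stages after day 21. Members stand at 10.7% against 3.02% in early proestrus below late juvenile, and at or below the grey bars in both late juvenile comparisons. A low early proestrus mean favoured membership, so nothing is read from the first of these.

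As a further set, the 150 probes with the lowest value of the same day-21 measure under the same detection rule were carried through the same fits. Of these, 25 differed among the later stages (16.7%), near the members' 17.4%. At the late juvenile stage 12 of them rose (8%, against 6.9% of all probes) and 8 fell (5.33%, against 6.82%) relative to the juvenile stage. In early proestrus 8 rose (5.33%, against 3.35% of all probes) and 0 fell (against 3.02%) relative to the late juvenile stage. The choice of this set favoured a high early proestrus mean, so nothing is read from that split.

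The spread between rats of a stage was wide among the members. The median SD over members was 0.155 at the early juvenile stage, 0.308 at the juvenile stage, 0.260 at the late juvenile stage, 0.191 in early proestrus and 0.201 in late proestrus. Over the 9681 probes the medians were 0.130, 0.189, 0.192, 0.163 and 0.147 in the same order, lower at each stage, a difference that was not tested. The rule ranked differences between stage means on these same arrays, which favours probes with a wide spread. Nothing is therefore read from the comparison. Of the members' variance within stages, 13.1% came from juvenile replicate 5 and 15.8% from late juvenile replicate 1. On juvenile replicate 5, 32.7% of the members were lower than the mean of the other arrays of the stage by over 0.5. Another 14% were higher by over 0.5, against 14.1% lower and 11.2% higher among all probes tested. On late juvenile replicate 1 the shares were 25.3% lower and 16.7% higher, against 11.8% and 10.6% of all probes tested. Low values on these arrays lower their stage means and so favour membership. Nothing is read from these comparisons either.

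The members did not vary as 1 block. After each stage mean was removed, average-linkage clustering of the members over the 22 arrays, joined down to a mean correlation of 0.4, gave 4 groups of at least 9 members, and 45 members outside them. The members share the same RNA on each array, so these correlations describe 22 animals and their arrays and carry no test. The groups were formed after the values were seen.

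The group of 55 members, which held ILMN_1358038, had a median pairwise correlation of 0.65 and was low on the 2 dimmest arrays. On juvenile replicate 5, 54 of 55 members were below their stage mean, by 0.54 on average, and on late juvenile replicate 1 all 55 were, by 0.54. Without these 2 arrays, 37 of the 55 stayed together. Their mean difference from day 21 was -0.49, -0.59, -0.62 and -0.58 in order of age. The juvenile and late juvenile means include the 2 dimmest arrays, at -1.03 and -1.13. The other juvenile arrays were at -0.42, -0.22 and -0.29, and the other late juvenile arrays at -0.42 to -0.50. The proestrus arrays were at -0.49 to -0.76. ILMN_1358038 itself correlated above 0.8 with 18 other members.

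The group of 30, which held ILMN_1371120 and ILMN_1371641, had a median pairwise correlation of 0.82 and stayed whole without the 2 dimmest arrays. It lay at -0.67 from day 21 at the juvenile stage, -0.30 at the late juvenile stage, -0.93 in early proestrus and -0.67 in late proestrus. Of the 9 members that rose at the late juvenile stage 7 were in this group, and of the 16 that fell in early proestrus 11 were. In 1 of its 30 members all early juvenile arrays were above all later arrays, against 46 of all 150 members and 1.05% of the 9681 probes. Since the rule used this contrast, nothing is read from the count. The animals of a stage differed widely in it: all 30 members were below their stage mean on early juvenile replicate 2 (by 0.31), juvenile replicate 1 (by 0.35), late juvenile replicate 4 (by 0.39) and late proestrus replicate 5 (by 0.48). The 2 dimmest arrays were high in this group, at 0.39 and 0.45 above the stage means. Late proestrus replicate 5 had the lowest mean raw signal of its stage, 695. The part of array brightness in these differences was not tested.

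The group of 11, which held ILMN_1371267, was high on 1 array. Late proestrus replicate 4 stood 1.10 above the stage mean on average, with all 11 members high, while the other 4 late proestrus arrays were 0.12 to 0.42 below it. That array's mean raw signal of 913 lay within the range of its stage, 695 to 1025. The 11 members also differed among early juvenile rats, from -0.25 on replicate 1 to 0.18 on replicate 2. The group's differences from day 21 were -0.86, -0.78, -0.78 and -0.86 in order of age.

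The group of 9, which held ILMN_1352660, differed mainly among late juvenile, early proestrus and late proestrus rats. Late juvenile replicate 1 was 0.35 above the stage mean and replicate 3 was 0.34 below it, with all 9 members on the same side on each array. Early proestrus replicate 1 was 0.45 below the stage mean and replicate 3 was 0.47 above it, with all 9 members on the same side on each array, and late proestrus replicate 5 was 0.40 below. At day 21 the mean over the 9 members varied little between arrays, from -0.06 to 0.09. Single members varied more, such as ILMN_1352660, at 8.53 to 9.53 on the early juvenile arrays. Of its 9 members, 6 had all early juvenile arrays above all later arrays, against 46 of all 150 members and 1.05% of the 9681 probes. Since the rule used this contrast, nothing is read from the count.

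**Figure D4:**
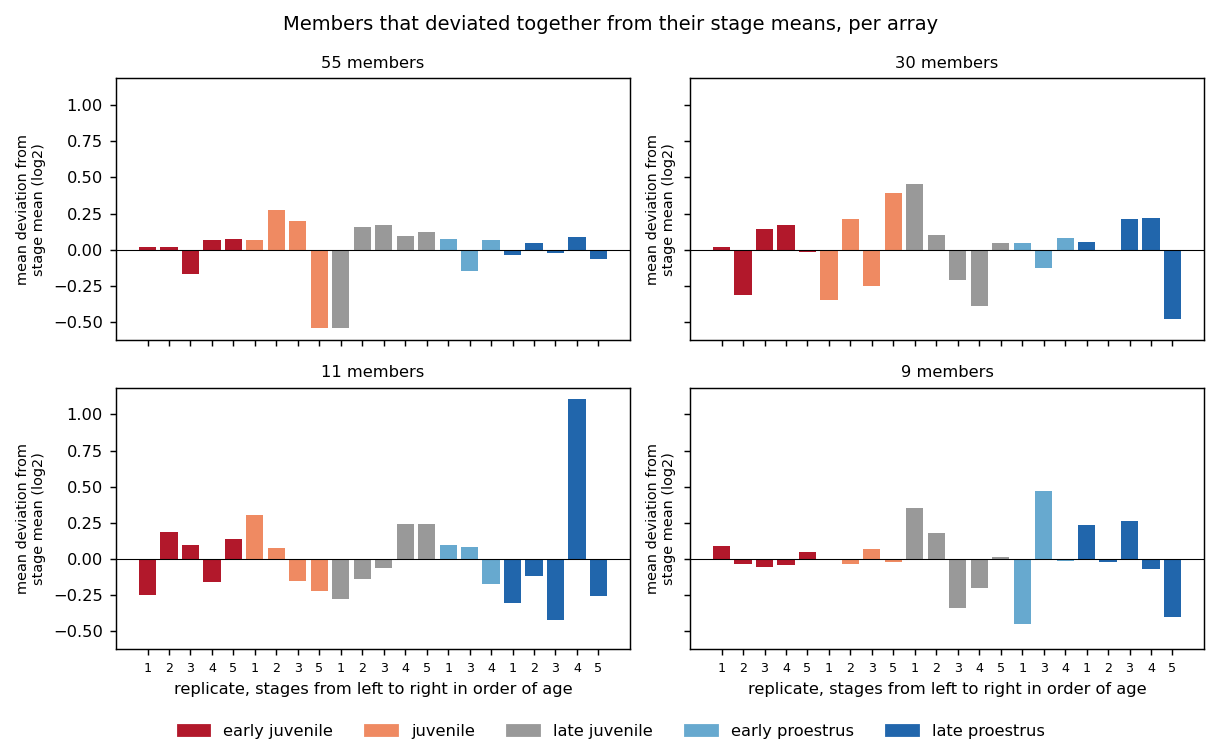
Mean deviation from the stage mean (log2 intensity) on each of 22 arrays for 4 groups of members that varied together, coloured by stage. The group of 55 is lowest on juvenile replicate 5 and late juvenile replicate 1, at -0.54 on each, the group of 11 is high on late proestrus replicate 4 at 1.10, and the groups of 30 and 9 deviate on arrays of several stages.

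Background correction changed the size of the excess and its order. After it, the excess of the 150 members ran from 0.32 to 2.08 with a median of 0.58, above 0 in all 150. The bright ILMN_1358038 had 2.08 after the correction against 2.02 on the authors' scale, and the dim ILMN_1352539 had 1.38 against 0.436. When the membership rule was applied to background-corrected values, 87 of the 150 were chosen again. The 87 had a median early juvenile level of 9.03 and the 63 not chosen again one of 10.9, while the 150 probes chosen on that scale had a median level of 7.59. The brightness of the members was thus not shared by the probes that the same rule chose after background correction.

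**Figure D5:**
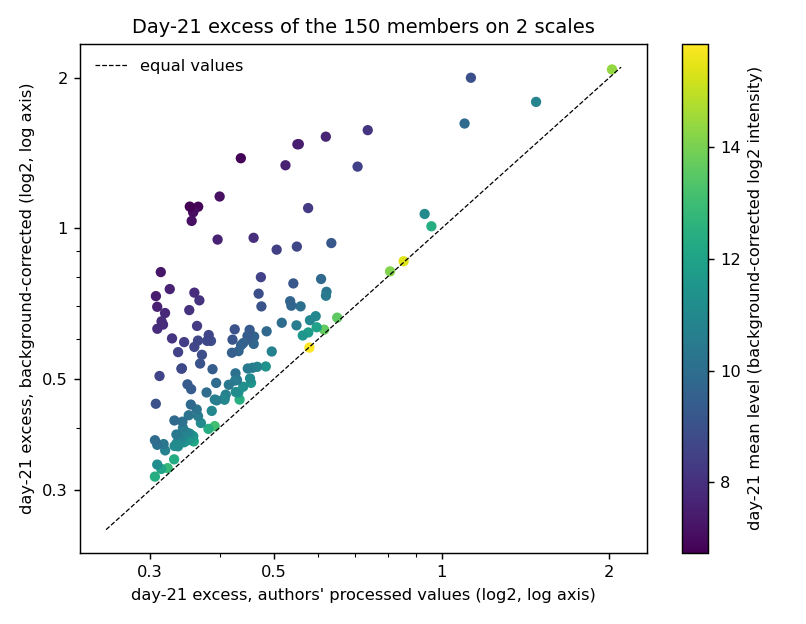
Day-21 excess of each of the 150 members after background correction (vertical, log2) against the excess on the authors' processed values (horizontal, log2), both on log axes and coloured by early juvenile level. Bright members lie near the line of equal values, and dim members lie above it, such as ILMN_1352539 at 1.38 against 0.436.

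Second probes for the same target were present for 8 members. Only 4 of these were detected on all early juvenile arrays, and of the 4, 2 had an excess above 0 on the authors' scale, 0.161 and 0.0889, below the 0.364 and 0.337 of their members. The other 2 were at -0.0001 and -0.0066 where their members were at 0.328 and 0.331. For these 2 targets the day-21 excess was therefore seen with 1 probe and not with the other.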

How the data were processed

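Hypothalamic RNA was labelled as biotinylated cRNA and hybridised to Illumina bead arrays, per the labels' protocols. The deposited files hold non-normalized intensity and a detection p-value per probe, per the file headers, and the authors' processed intensity, whose values had the same distribution on every array; the software behind both is not given in the sources used here. No deposited column was left without use (0 unused). The authors' processed intensity was log2 transformed to choose the members. The raw intensity was background-corrected, quantile-normalized and log2 transformed with neqc, which used detection p-values in place of control probes and an offset of 16 (limma 3.58.1, R 4.3.3). Stage means were fitted with limma on 22 of 24 arrays, with p-values over the 12069 probes detected on at least 4 of 17 later arrays. The 22 arrays limit the precision. Slide and scan batches were not in the labels. The scripts for the fits and for the choice of members were tested on simulated data. Named probes are the 2 with the highest excess, those called between juvenile and late proestrus, and others marked as chosen after their values were seen. The members and lists were chosen with earlier results of these data known. Planned gene and marker lists were not used, for lack of gene names.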

Additional observations from a re-analysis of the deposited data

Results flagged for a closer look

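Stage groups of 4 or 5 arrays were examined for the 10 named members and for the members' median level. Of these 44 groups, 6 held an array far from the others. Chance marks about 5% of independent groups. These groups share the same arrays, and several of the probes were chosen after their values were seen. The 6 are therefore not compared with that rate. ILMN_1358038 was at 10.16 on juvenile replicate 5, where the other 3 arrays were at 12.98 to 13.02, and at 10.25 on late juvenile replicate 1, where the others were at 12.63 to 13.55. These are the 2 dimmest of the 22 arrays. ILMN_1352660 was at 5.78 on late juvenile replicate 3, with the others at 6.77 to 6.99. ILMN_1371267 was at 10.48 on late proestrus replicate 4, with the others at 8.14 to 8.54. On late proestrus replicate 5, ILMN_1371120 was at 12.33 with the others at 12.86 to 13.04, and ILMN_1371641 was at 10.3 with the others at 10.78 to 10.87.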

How the results depend on the processing

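The counts of members called were recomputed under each alternative, against 26 for any difference among later stages, 17 for late juvenile against juvenile, 17 for early proestrus against late juvenile, 0 for late against early proestrus and 1 for late proestrus against juvenile. With all 24 arrays the counts were 0 in every comparison, and with all 24 arrays weighted by quality they were 45, 39, 34, 0 and 2. With only the arrays of the stages compared they were 10, 4, 3, 0 and 0. Without the 2 dimmest arrays, an alternative added after the data were seen, they were 54, 35, 32, 0 and 2. Median scaling gave 11 for early proestrus against late juvenile, with 10 higher, and 0 for late proestrus against juvenile. Without the filter on dim probes, 15 differed among later stages and 11 in early proestrus. The other 28 of 51 recomputed values were within 1.5 times the reported one. On all 24 arrays without weights ILMN_1349541 was 0.43 higher at the late juvenile stage than at the juvenile stage. There ILMN_1355677 was at -0.88 in early proestrus. These 2 of 248 recomputed differences of named members changed sign, and the cause was not tested. Another 24 kept their sign and lost the call. No named call held on all 24 arrays without weights, and every named call held on all 24 arrays weighted by quality. Leaving out 1 array at a time, the count ranged from 11 (without late juvenile replicate 5) to 45 (without juvenile replicate 5) for any difference, with 12, 14 and 16 without late juvenile replicates 2 and 3 and late proestrus replicate 2. It ranged from 6 (without juvenile replicate 3) to 40 (without juvenile replicate 5) for late juvenile against juvenile, with 8, 11 and 10 without juvenile replicate 1 and late juvenile replicates 2 and 5. It ranged from 1 to 24 for early proestrus against late juvenile, and stayed at 0 and 1 in the other 2 comparisons. Applied elsewhere, the member rule chose 87 of the 150 again after background correction, 92 with median scaling and 66 on all 24 arrays. It chose 127 again without the 2 dimmest arrays, and 127 to 147 without 1 array. No paired analysis was possible because each array held a different animal and replicate numbers mark no pairing.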
